A study of Mus musculus with 96 samples.

Results

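Messenger RNA of 8 acute-phase genes, Saa3, Hp, Orm1, Lrg1, Serpina3n, Lcn2, C3 and Cp, was followed in sciatic nerve and gastrocnemius muscle of mice kept on 7 diet and running regimens. The genes were taken by symbol, and all 8 were found among the 22632 gene symbols of the nerve files and among the 20940 of the muscle files. The set was chosen by results of these data: it was selected on calls of Saa3 and Lrg1 among the log2 differences between high-fat diet libraries and those of the standard diet or of sedentary mice taken off the high-fat diet. Comparisons with high-fat diet libraries are therefore described without a test, and tests are given for 6 other comparisons in each tissue.

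All mice were singly housed males of the C57BL/6J strain, with no transgene or deletion in the labels. Diets began at 12 weeks of age, 4 of the regimens changed at 18 weeks, and tissue was taken at 26 weeks. Standard diet (SD, 10% of energy from fat), lard-based high-fat diet (HFD, 60%) and cocoa butter-based ketogenic diet (KD, 90%) were eaten throughout by 3 groups. The other 4 groups ate HFD to 18 weeks and then went to SD (DR), went to KD (KDI), stayed on HFD with a running wheel (EX), or went to KD with a running wheel (KDI_EX). The fat source differs between HFD and KD, so fat source and fat content cannot be told apart between them. Nerve gave 47 libraries (6 SD, 6 HFD and 7 of each other regimen) and muscle gave 49 (8 SD, 6 KDI_EX and 7 of each other regimen). The authors' log2 values carry no counts, so sequencing depth is unknown. Levels were compared within a gene and a tissue only, and ± gives the standard deviation after a mean and the standard error after a difference. Nothing in the labels names the mouse behind a library, so p-values measure the spread between libraries.

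Acute-phase proteins are secreted in large amounts by the liver during infection, injury or chronic inflammation, when the cytokines IL-6, IL-1 and TNF act through the transcription factors STAT3, C/EBP and NF-kB. Several of them are also made outside the liver: in mice, Saa3 is the serum amyloid A of macrophages and fat cells, and haptoglobin, orosomucoid and LRG1 are made by adipocytes. Fat cells lie in the outer sheath of sciatic nerve and between muscle fibres, so bulk RNA of either tissue can hold adipocyte transcripts beside those of Schwann cells or fibres.

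The members differ in role. Saa3 encodes a serum amyloid A that rides on lipoproteins and attracts leukocytes. Hp encodes haptoglobin, which binds free haemoglobin, and Orm1 encodes orosomucoid, a lipid- and drug-carrying plasma glycoprotein. Lrg1 encodes a leucine-rich glycoprotein that modulates TGF-beta signalling in endothelium. Serpina3n encodes a secreted serine protease inhibitor. Lcn2 encodes lipocalin 2, which withholds iron-loaded siderophores from bacteria and is stored in neutrophil granules. C3 encodes the central complement component, and Cp encodes ceruloplasmin, a copper-bearing ferroxidase.

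In the GENCODE annotation of GRCm38 all 8 are protein-coding: Saa3 on chromosome 7 (46711998 to 46715700), Hp on chromosome 8 (109575128 to 109579172), Orm1 on chromosome 4 (63344560 to 63348163), Serpina3n on chromosome 12 (104406729 to 104414329), Lcn2 on chromosome 2 (32384633 to 32388252) and Cp on chromosome 3 (19957054 to 20009145). Lrg1 (56119678 to 56122001) and C3 (57203970 to 57228136) share chromosome 17. Promoter windows of 300 bases, from 250 before to 50 after the start, were available for 6 of the 8 members from RefSeq (build GRCm38.p6). The windows of 4 members are shown, each 5′ to 3′ on the gene's own strand: Saa3 and Serpina3n, which differed between running groups in nerve, Lrg1, which tracked Hp across libraries, and Lcn2, which stayed nearly level in nerve. Capitals mark a match to the C/EBP motif TTGCNNAA on either strand.
Saa3, chr7:46715627-46715926, minus strand: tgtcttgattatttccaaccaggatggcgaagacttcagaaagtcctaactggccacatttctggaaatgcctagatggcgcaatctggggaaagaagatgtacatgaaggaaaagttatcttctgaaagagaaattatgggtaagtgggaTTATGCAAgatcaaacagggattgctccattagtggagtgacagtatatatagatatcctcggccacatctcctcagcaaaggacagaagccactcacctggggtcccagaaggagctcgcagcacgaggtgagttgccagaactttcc
Serpina3n, chr12:104406458-104406757, plus strand: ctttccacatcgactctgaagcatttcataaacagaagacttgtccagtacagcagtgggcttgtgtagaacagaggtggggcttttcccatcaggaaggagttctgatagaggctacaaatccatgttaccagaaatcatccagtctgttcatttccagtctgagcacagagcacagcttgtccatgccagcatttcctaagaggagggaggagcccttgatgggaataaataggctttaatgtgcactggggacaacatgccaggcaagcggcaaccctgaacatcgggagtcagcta
Lrg1, chr17:56121897-56122196, minus strand: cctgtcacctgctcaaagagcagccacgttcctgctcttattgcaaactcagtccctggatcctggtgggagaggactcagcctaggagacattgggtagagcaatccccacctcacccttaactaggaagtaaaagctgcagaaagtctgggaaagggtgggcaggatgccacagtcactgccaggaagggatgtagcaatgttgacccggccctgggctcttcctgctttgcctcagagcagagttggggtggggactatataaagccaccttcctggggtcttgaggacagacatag
Lcn2, chr2:32387690-32387989, minus strand: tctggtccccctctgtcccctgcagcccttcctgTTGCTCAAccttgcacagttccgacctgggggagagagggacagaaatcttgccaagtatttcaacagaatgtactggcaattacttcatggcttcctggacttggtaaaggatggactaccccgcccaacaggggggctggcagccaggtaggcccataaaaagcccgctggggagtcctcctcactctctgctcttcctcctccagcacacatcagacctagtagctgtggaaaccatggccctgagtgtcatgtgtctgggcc
The Saa3 window held 1 C/EBP match, TTATGCAA read on its own strand, whose first base lies at -99 from the start site. The Lcn2 window held 1, TTGCTCAA, at -216. The C3 window held 1, TTGCGAAA, at -45. Of the Cp windows, the second held 1, TTTTGCAA, at -70. No C/EBP match was found in the Lrg1 and Serpina3n windows. Of the 32544 distinct promoter windows of the table, 10.8% held this motif. The STAT3 motif TTCNNNGAA, in 8.3% of all windows, and the NF-kB motif, in 8.5%, were in none of the windows of these members, and no motif places overlapped. A match is a run of letters and no measured binding site.

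Saa3 had the widest span of regimen means among the members in nerve, 2.65 log2 units, and its high libraries came from HFD and EX mice. In HFD nerve its lowest, median and highest libraries were at 4.18, 7.16 and 8.65, and in EX nerve at 4.93, 6.58 and 8.08. In SD nerve they were at 4.05, 4.31 and 5.55, and in DR nerve at 4.09, 4.30 and 5.89. The regimens that ended on KD lay in a narrow low band, since no library of KD, KDI or KDI_EX nerve exceeded 4.72. That band is close to the lowest value of Saa3 in nerve, 3.96, and the median of all 47 nerve libraries was 4.30. Mean levels were 6.71 ± 1.74 in HFD (n = 6), 6.65 ± 1.297 in EX (n = 7), 4.599 ± 0.66 in DR (n = 7), 4.44 ± 0.55 in SD (n = 6), 4.32 ± 0.27 in KDI, 4.26 ± 0.25 in KDI_EX and 4.06 ± 0.10 in KD (n = 7 each). In this order the one gap larger than the wider standard deviation of its neighbours lay between EX and DR. In bulk tissue, fewer cells of a type and less RNA per cell cannot be told apart, here and in every result that follows.

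In muscle Saa3 was close to the lowest value the files hold for it in most libraries. HFD muscle ran from 2.49 to 4.50 with a median of 3.71, and EX muscle from 2.29 to 3.69 with a median of 2.75. The other 5 regimens had medians between 2.31 and 2.39. Saa3 entered the tested genes in muscle only through 6 HFD and 2 EX libraries that reached the filter of log2 of 10 (3.32), so its passing supports nothing. Mean levels were 3.66 ± 0.63 in HFD (n = 7), 2.87 ± 0.56 in EX (n = 7) and 2.46 ± 0.28 in SD (n = 8).

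**Figure D1:**
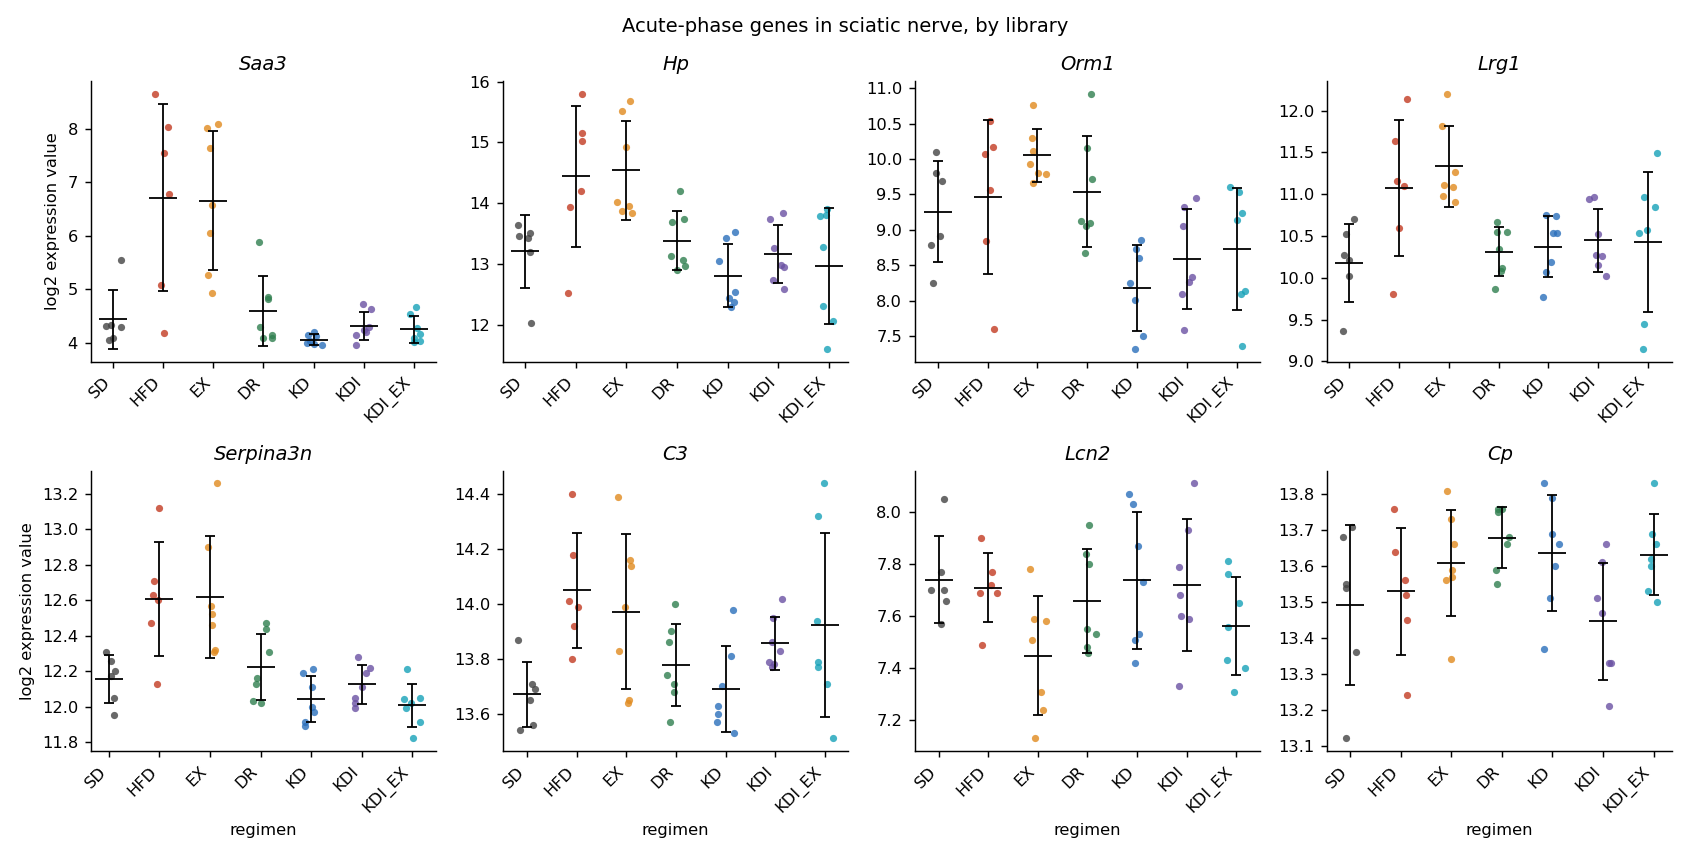
Deposited log2 values (vertical axes, one scale per gene) of the 8 members in sciatic nerve by regimen; each point is 1 library, and bars give the mean ± SD (n = 6 for SD and HFD, 7 otherwise). Saa3 reaches 8.65 in HFD and 8.08 in EX and stays at or below 4.72 in the regimens that end on KD, while Cp spans 0.72 log2 units over all 47 libraries.

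Hp, Lrg1 and Serpina3n were highest in the same 2 regimens, HFD and EX, in both tissues. In nerve, Hp ran from 12.5 to 15.8 in HFD (median 14.6) and from 13.8 to 15.7 in EX (median 14.02), against 12.0 to 13.7 in SD (median 13.4). Its means were 14.54 ± 0.81 in EX, 14.44 ± 1.16 in HFD, 13.39 ± 0.49 in DR, 13.21 ± 0.60 in SD, 13.16 ± 0.48 in KDI, 12.97 ± 0.95 in KDI_EX and 12.81 ± 0.52 in KD. No neighbours in that order differed by more than the wider of their standard deviations. In muscle the order was HFD (12.03 ± 1.13), EX (11.66 ± 0.88), KDI (10.98 ± 0.44), DR (10.39 ± 0.65), SD (10.37 ± 0.97), KD (9.83 ± 0.60) and KDI_EX (9.56 ± 0.71), again with no gap beyond it.

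Lrg1 in nerve averaged 11.33 ± 0.48 in EX and 11.07 ± 0.81 in HFD, and between 10.18 and 10.45 in the other 5 regimens. Its EX libraries ran from 10.9 to 12.2, above every SD library (9.36 to 10.7). In muscle Lrg1 averaged 9.39 ± 0.57 in HFD and 9.25 ± 0.47 in EX, and between 8.46 and 8.92 elsewhere. Serpina3n in nerve averaged 12.61 ± 0.32 in HFD and 12.62 ± 0.34 in EX, and between 12.01 and 12.22 elsewhere. In muscle Serpina3n averaged 9.05 ± 0.81 in HFD and 8.99 ± 0.63 in EX, and its lowest mean was 7.77 ± 0.53 in KDI_EX.

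The means of Orm1 came in another order in nerve. No neighbours in its order differed by more than the wider of their standard deviations in either tissue. In nerve the mean of Orm1 was highest in EX, at 10.05 ± 0.38, followed by DR at 9.54 ± 0.78 and HFD at 9.46 ± 1.09. It was lowest in the regimens that ended on KD, with 8.18 ± 0.60 in KD, 8.59 ± 0.70 in KDI and 8.73 ± 0.86 in KDI_EX. In muscle the lowest means were also those of KD (5.29 ± 0.25) and KDI_EX (5.40 ± 0.63), and the highest were HFD (6.92 ± 0.74) and EX (6.84 ± 0.79).

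C3, Lcn2 and Cp spread least in nerve. The means of the 7 regimens spanned 0.38 log2 units for C3, from 13.67 ± 0.12 in SD to 14.05 ± 0.21 in HFD. They spanned 0.29 for Lcn2, with EX lowest at 7.45 ± 0.23, and 0.23 for Cp. In muscle the spans were 0.52 for C3 and 0.33 for Cp. The span of Lcn2 in muscle, 0.99, rested on 1 library: KDI replicate 7 stood at 9.45, while the other 6 KDI libraries lay between 4.80 and 5.28.

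**Figure D2:**
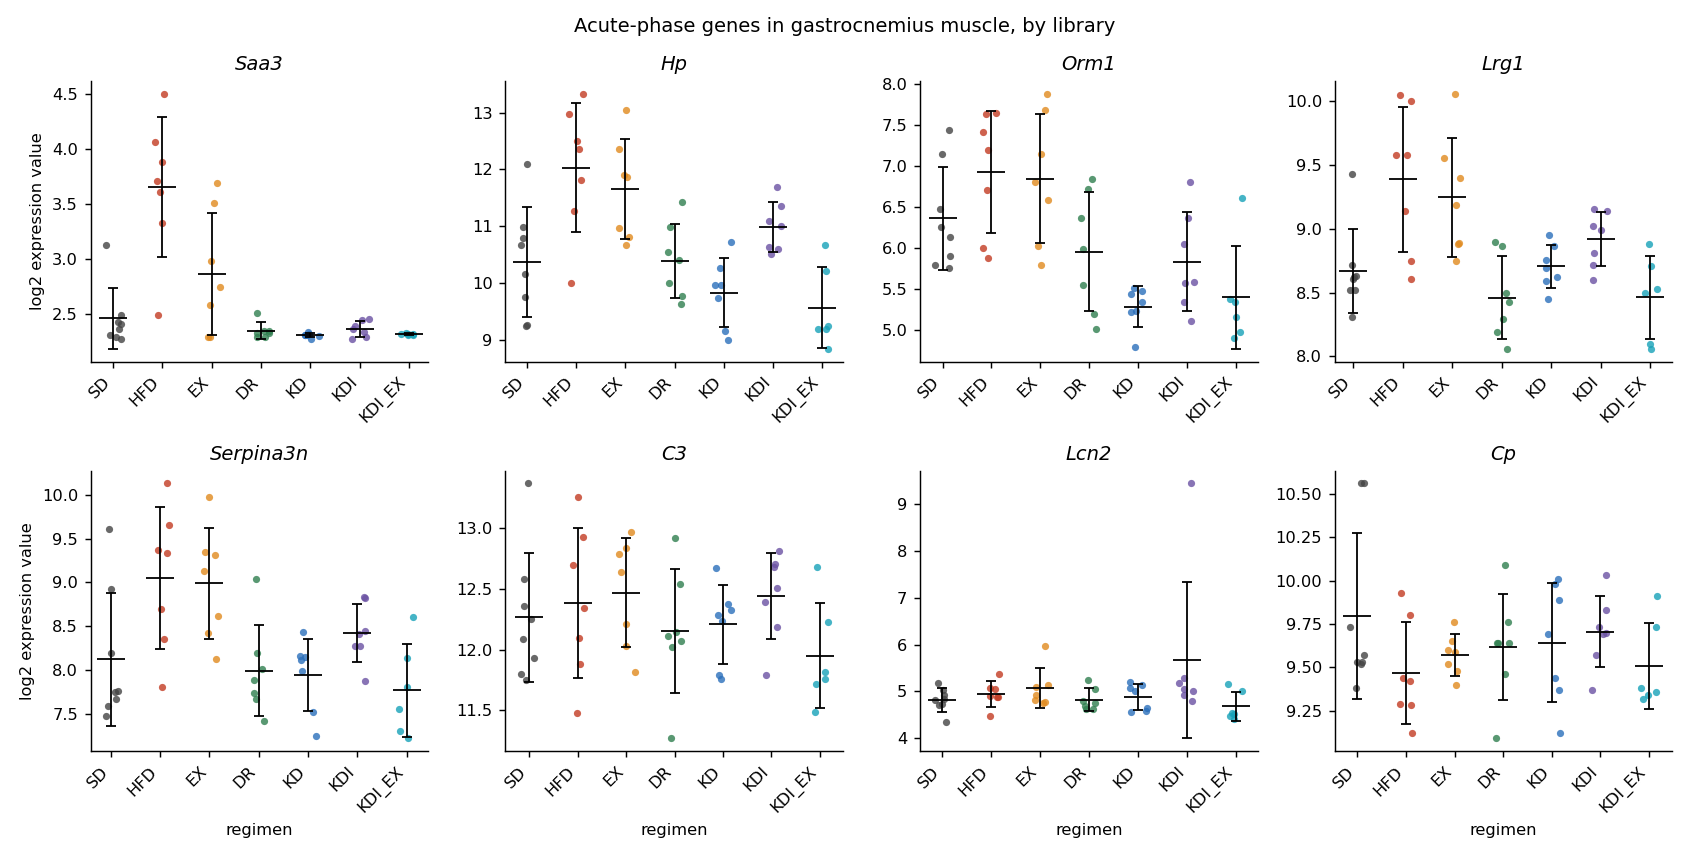
Deposited log2 values (vertical axes, one scale per gene) of the 8 members in gastrocnemius by regimen; each point is 1 library, and bars give the mean ± SD (n = 8 for SD, 6 for KDI_EX, 7 otherwise). Saa3 reaches 4.50 in HFD and 3.69 in EX, and 1 KDI library of Lcn2 stands alone at 9.45.

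Set against HFD, which the choice of genes used, the differences are descriptions. In nerve 7 of the 8 members were higher in HFD than in SD, beside 48.2% of all 17226 tested genes, and the median member difference was 0.42 log2 units. Saa3 was 2.27 ± 0.49 above SD, Hp 1.23 ± 0.42, Lrg1 0.90 ± 0.31, Serpina3n 0.45 ± 0.12 and C3 0.38 ± 0.12. In muscle 7 of the 8 were also higher, beside 48.4% of 15748 genes, with Hp 1.66 ± 0.40 above SD, Saa3 1.19 ± 0.17, Serpina3n 0.93 ± 0.30 and Lrg1 0.72 ± 0.18. Nothing is read from these counts.

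The other regimens set against HFD are described in the same way, and all of them share the HFD libraries. Leaving HFD while sedentary went with lower Saa3 in nerve: the difference from HFD was -2.11 ± 0.48 in DR and -2.40 ± 0.48 in KDI, with 7 of 7 libraries below the HFD mean in each. Hp in nerve differed by -1.05 ± 0.41 in DR and by -1.28 ± 0.41 in KDI. Orm1 in nerve lay 0.07 ± 0.41 from HFD in DR and -0.88 ± 0.41 in KDI, and the direct difference between KDI and DR, -0.95 ± 0.40, was not called (limma adjusted p = 0.865, groups overlapping). In muscle Orm1 differed from HFD by -0.97 ± 0.33 in DR and by -1.09 ± 0.33 in KDI, and Saa3 by -1.31 ± 0.18 and -1.29 ± 0.18.

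KD eaten throughout and KDI_EX were also lower than HFD for Saa3 and Hp. In KD, Saa3 differed from HFD by -2.65 ± 0.48 in nerve and -1.35 ± 0.18 in muscle, Hp by -1.63 ± 0.41 and -2.20 ± 0.42, and Orm1 by -1.29 ± 0.41 and -1.64 ± 0.33. In KDI_EX, Hp in muscle differed from HFD by -2.47 ± 0.43, with 6 of 6 libraries below the HFD mean. Lrg1 lay no farther from HFD in KD than in DR, at -0.70 ± 0.30 against -0.76 ± 0.30 in nerve and -0.68 ± 0.19 against -0.93 ± 0.19 in muscle.

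EX and HFD, which differ by the wheel alone, are set side by side next. In nerve Saa3 in EX differed from HFD by -0.06 ± 0.48, with a 95% interval from -1.02 to 0.90, and Hp by 0.10 ± 0.41. Orm1 in nerve was 0.59 ± 0.41 above HFD in EX, with 7 of 7 libraries above the HFD mean. The groups overlapped, however, and the medians were 9.93 in EX and 9.82 in HFD. Lcn2 in nerve differed by -0.26 ± 0.12, with 6 of 7 EX libraries below the HFD mean and the groups overlapping. In muscle the EX level of Saa3 differed by -0.79 ± 0.18, below the HFD mean in 6 of 7 libraries, and Hp by -0.38 ± 0.42.

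The comparison of the running groups, KDI_EX with EX, asks what eating KD rather than HFD went with in mice that had wheels. It shares no library with the contrasts that chose the genes (HFD against SD, DR and KDI), although the spread was estimated over all 7 groups. In nerve, 2 of the 8 members, Saa3 and Serpina3n, were called lower in KDI_EX (limma, Benjamini-Hochberg adjusted p under 0.05 over all genes), where 0.0581% of the 17226 tested genes were called in either direction and 0.0464% were called lower. Of the 8 members, 6 were lower in KDI_EX, with a median difference of -0.76 beside 0.004 over all genes.

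In EX nerve Saa3 stood at 4.93, 6.58 and 8.08 (lowest, median and highest of 7 libraries), and in KDI_EX nerve at 4.02, 4.16 and 4.67. All KDI_EX libraries lay below all EX libraries, beside 0.174% of tested genes whose groups did not overlap in either direction. Saa3 fell by 2.40 ± 0.46 on the log2 scale, a 5.26-fold difference with a 95% interval from 2.78 to 9.96 (limma adjusted p = 0.0163). The KDI_EX libraries lay close to the lowest value of Saa3 in nerve, 3.96, so the size of this difference is uncertain. Serpina3n stood at 12.3, 12.5 and 13.3 in EX and at 11.8, 12.0 and 12.2 in KDI_EX. The groups again did not overlap. Serpina3n fell by 0.61 ± 0.11, a 1.53-fold difference with a 95% interval from 1.31 to 1.79 (limma adjusted p = 0.0114).

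Both nerve calls depended on which libraries were included. EX replicate 5 and KDI_EX replicate 7 had skeletal muscle marker scores of 4.19 and 4.14, above all other nerve libraries, and the lowest mean correlations with the other nerve libraries. Without both, Saa3 differed by -2.14 (adjusted p = 0.184, limma) and Serpina3n by -0.52 (adjusted p = 0.108, limma). Leaving out EX replicate 2 or EX replicate 5 alone ended both calls, and leaving out EX replicate 1 ended that of Saa3 (adjusted p up to 0.108 for Saa3 and 0.0761 for Serpina3n, limma). Fitted on the EX and KDI_EX libraries alone, the sizes were the same and neither was called (adjusted p = 0.236 and 0.258, limma).

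The other 6 members were not called in the nerve of runners. Hp differed by -1.57 ± 0.39 between KDI_EX and EX, Orm1 by -1.32 ± 0.40 and Lrg1 by -0.91 ± 0.29, and the EX and KDI_EX libraries of Orm1 did not overlap. With adipocyte and skeletal muscle marker scores as covariates these 3 were called as well, at -1.16, -0.86 and -0.60 (limma adjusted p = 0.00625, 0.0425 and 0.0497). Each of the 3 differences was smaller than without covariates. Calls over all 17226 genes rose from 10 to 53 under that setting, so more calls were not particular to the members. C3, Cp and Lcn2 differed by -0.05 ± 0.11, 0.02 ± 0.08 and 0.11 ± 0.11, with 95% intervals within -0.27 to 0.34.

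In muscle the same comparison called 1 member, Hp, where 0.0635% of 15748 genes were called in either direction and 0.0127% were called lower. All 8 members had lower means in KDI_EX, with a median difference of -0.67 beside 0.001 over all genes, and Saa3, near its floor, is among them. Hp stood at 10.7, 11.9 and 13.04 in EX and at 8.84, 9.22 and 10.7 in KDI_EX. The groups touched at their edges, with the highest KDI_EX library at the level of the lowest EX library. Hp fell by 2.10 ± 0.43, a 4.28-fold difference with a 95% interval from 2.34 to 7.83 (limma adjusted p = 0.0298).

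This call was lost under 6 of the 7 alternatives and when any of 8 libraries was left out: EX replicates 1, 3, 6 and 7 and KDI_EX replicates 1, 3, 4 and 6 (limma adjusted p up to 0.184). With adipocyte and Schwann cell marker scores as covariates the difference of Hp was -0.82 (limma adjusted p = 0.382). The adipocyte score was 0.29 ± 0.38 in EX muscle and -0.31 ± 0.42 in KDI_EX muscle. Its part in the difference of Hp was not tested. Orm1 (-1.45 ± 0.35), Serpina3n (-1.22 ± 0.32), Lrg1 (-0.79 ± 0.20), Saa3 (-0.55 ± 0.18) and C3 (-0.52 ± 0.25) were not called. Orm1 was called without EX replicate 5 or without KDI_EX replicate 5 (limma adjusted p = 0.0415 and 0.0266).

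**Figure D3:**
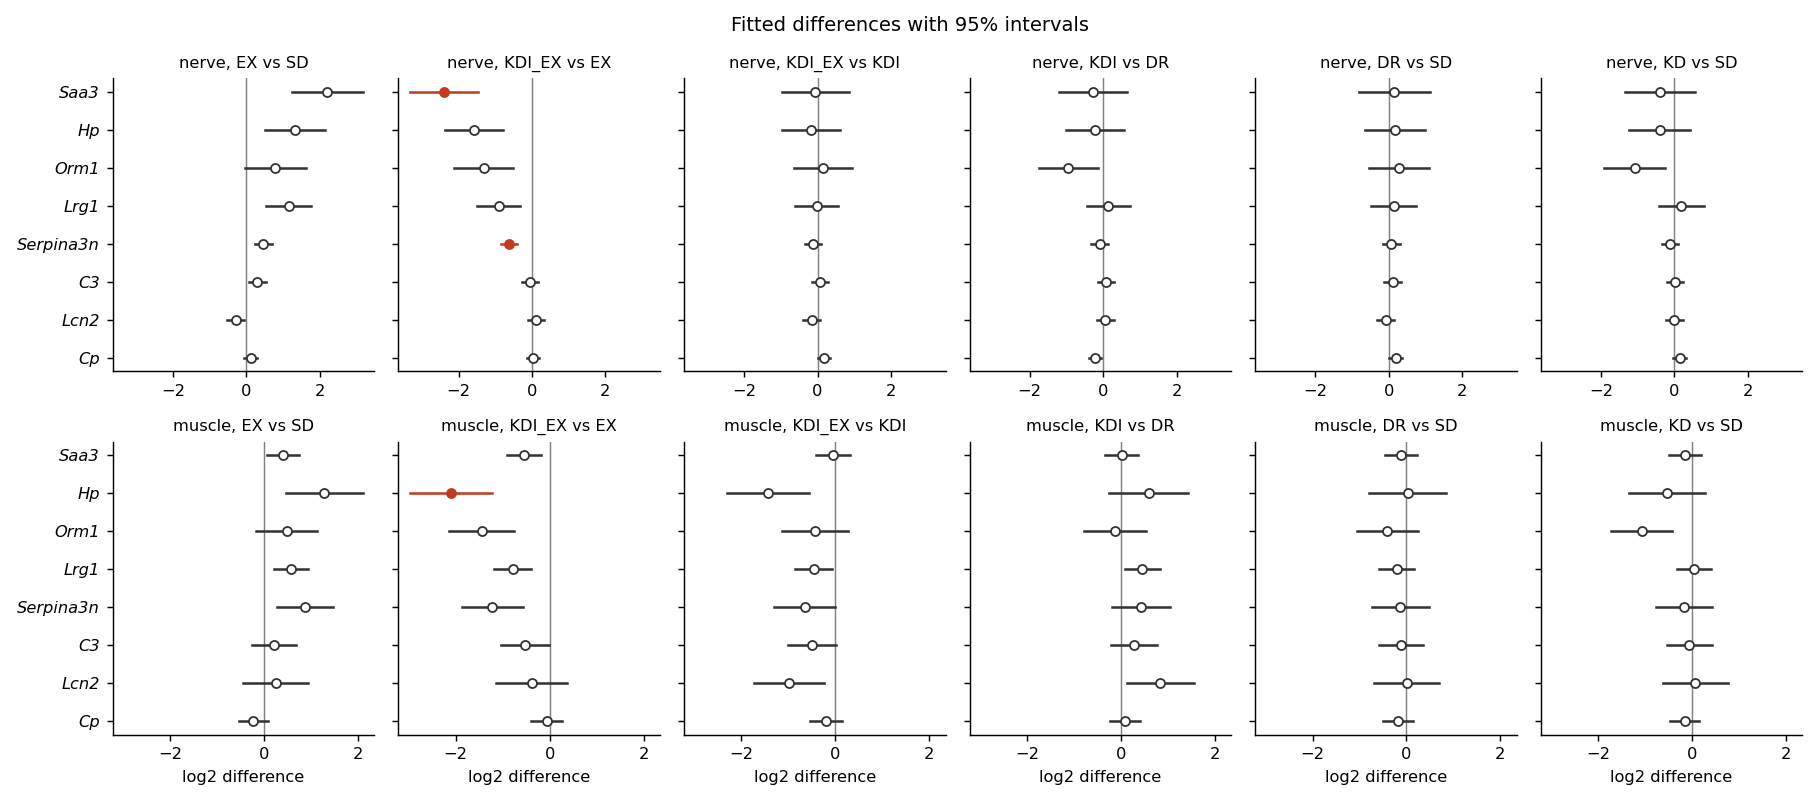
Fitted log2 differences (horizontal axes) of the 8 members in the 6 tested comparisons of each tissue, with 95% intervals; filled red points are called at a limma adjusted p under 0.05. The 3 called points are Saa3 (-2.40) and Serpina3n (-0.61) in nerve and Hp (-2.10) in muscle, all in KDI_EX against EX.

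EX against SD, which shares its SD libraries with a contrast that chose the genes, called no member in either tissue. In nerve 0.0% of genes were called, while 2006 of 17226 genes and 6 of the 8 members had an unadjusted p under 0.05. Saa3 was 2.21 ± 0.48 higher in EX nerve (7 of 7 libraries above the SD mean, limma adjusted p = 0.0808) and Lrg1 1.16 ± 0.30 higher, with no overlap for Lrg1, Hp and Serpina3n, beside 0.383% of tested genes whose groups did not overlap. With library quality weights Saa3, Hp, Lrg1 and Serpina3n were called, together with 355 genes in all. In muscle 0.0826% of genes were called, and 1842 of 15748 genes and 4 of the 8 members had an unadjusted p under 0.05. These members were Hp, Lrg1, Serpina3n and Saa3, which lay near its floor and passed the filter only through HFD and EX libraries. Hp was 1.29 ± 0.40 and Serpina3n 0.87 ± 0.30 higher in EX, with overlap in both. With library quality weights Hp, Lrg1 and Serpina3n were called there, together with 1107 genes.

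No member was called by limma in the other comparisons of either tissue, all of which share SD, DR or KDI libraries with the contrasts that chose the genes. These were KD against SD (0.00581% of genes called in nerve, 0.197% in muscle), DR against SD (0.0% in both), KDI_EX against KDI (0.0% in both) and KDI against DR (0.00581% in nerve, 0.0508% in muscle). At an unadjusted p under 0.05 limma counted 910 genes in nerve and 1611 in muscle for KD against SD, 1706 and 226 for DR against SD, 801 and 744 for KDI_EX against KDI, and 936 and 1173 for KDI against DR. Members with an unadjusted p under 0.05 numbered 1 in nerve and 1 in muscle for KD against SD, 1 and 0 for DR against SD, 1 and 4 for KDI_EX against KDI, and 2 and 2 for KDI against DR. The muscle counts for KDI_EX against KDI and for KDI against DR include Lcn2, which rests largely on KDI replicate 7. Orm1 had the largest difference between KD and SD, -1.08 ± 0.41 in nerve and -1.08 ± 0.32 in muscle, where the KD and SD libraries did not overlap (4.79 to 5.51 against 5.75 to 7.44), beside 0.406% of tested genes without overlap. In nerve DR and SD differed by 0.16 ± 0.48 for Saa3, with a 95% interval from -0.80 to 1.11. In muscle the mean of KDI_EX lay below that of KDI for all 8 members, while 51.8% of all genes had the higher mean in KDI_EX, and Hp differed by -1.43 ± 0.43. Saa3, near its floor in both groups, is among the 8 with a difference of -0.04, so its direction supports nothing. With marker scores as covariates Saa3, Orm1, Lrg1, Serpina3n and Cp took the other sign there (0.237, 0.219, 0.002, 0.026 and 0.011), and the difference of Lcn2 rests largely on KDI replicate 7.

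The difference between the tissues was tested for each comparison over the 15055 genes tested in both. No member was called, and 8 of the 48 differences (16.7%) had an unadjusted p under 0.05, beside 7.16% over all genes. Those of Lcn2 for KDI against DR and for KDI_EX against KDI are among the 8, and in muscle they rest largely on KDI replicate 7. Those of Saa3 for EX against SD and for KDI_EX against EX are also among them. Tissues were treated as independent, since the labels do not tie a nerve to a muscle. The largest differences were those of Saa3, whose effect in nerve minus that in muscle was -1.85 ± 0.49 for KDI_EX against EX (limma adjusted p = 0.679) and 1.81 ± 0.50 for EX against SD (limma adjusted p = 0.28). Each tissue was transformed on its own and Saa3 lay near its floor in muscle, so the 2 scales may not match.

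Within regimens some members varied together across libraries. After each value was centred on its regimen mean, 14 of the 28 pairs of members were positively correlated by Pearson's r in nerve and 19 of 28 in muscle (100000 permutations, adjusted p under 0.05). The share over all pairs of genes was not computed, so these counts have no background beside them. The count in muscle includes pairs with Saa3, which lay near its floor there. Saa3 and Cp in nerve ran opposite ways by rank, with rho = -0.444 and r = -0.259 (permutation adjusted p = 0.00608 and 0.19). Hp and Lrg1 formed the closest pair, with Pearson's r = 0.886 and Spearman's rho = 0.847 in nerve, and 0.882 and 0.854 in muscle (permutation adjusted p = 5.6e-05 and 7e-05 in nerve, 2.8e-05 and 4.67e-05 in muscle). Without the 2 libraries farthest from the median, r was 0.852 and 0.849. Saa3 and Hp had r = 0.692 and rho = 0.627 in nerve (permutation adjusted p = 5.6e-05 and 0.000112), and r = 0.571 without HFD replicates 3 and 4. The standard deviation of Saa3 in nerve was 1.74 in HFD and 1.297 in EX, against 0.66 or less in the other regimens. The values of r with Saa3 in nerve therefore rest largely on HFD and EX libraries. All these correlations include the HFD libraries that the choice of genes used. Lcn2 and Hp had r = 0.102 and rho = 0.062 in nerve (permutation adjusted p = 0.52 and 0.694), and r = 0.046 without the 2 farthest libraries.

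The level of adipocyte transcripts moved with most members, though not with them alone. The adipocyte score, the mean centred log2 value of 18 markers among them Adipoq and Plin1, had r = 0.880 with Lrg1, 0.868 with Orm1 and 0.845 with Hp in nerve (rho = 0.854, 0.858 and 0.806; permutation adjusted p = 6.55e-05 for each r and 7.2e-05 for each rho). It had r = 0.391 with Saa3 and 0.454 with Serpina3n in nerve (rho = 0.418 and 0.456; permutation adjusted p = 0.00933 and 0.00152 for r, 0.0119 and 0.00661 for rho). Without the 2 farthest libraries these 5 values of r were 0.845, 0.883, 0.826, 0.445 and 0.541. The value for Saa3 in nerve again rests largely on HFD and EX libraries. In muscle the adipocyte score had r = 0.901 with Hp, 0.871 with Lrg1, 0.812 with Serpina3n and 0.746 with Orm1 (rho = 0.878, 0.867, 0.803 and 0.707; permutation adjusted p = 5.14e-05 for each r and 6.55e-05 for each rho). Saa3 in muscle had r = 0.574 and rho = 0.383 with it. That is a description, since Saa3 lay near its floor there and passed the filter only through HFD and EX libraries. Without the 2 farthest libraries r in muscle was 0.886 for Hp, 0.858 for Lrg1, 0.801 for Serpina3n, 0.691 for Orm1 and 0.562 for Saa3. The 8 members and 9 marker scores gave 72 such pairs in each tissue, of which 39 in nerve and 30 in muscle had an adjusted p under 0.05. The count in muscle includes Saa3 with the adipocyte score. No share over all genes was computed beside these counts. Lrg1 in nerve also had r = 0.787 with the hepatocyte, 0.753 with the endothelial and 0.741 with the fibroblast score (rho = 0.735, 0.699 and 0.694; permutation adjusted p = 6.55e-05 for each r and 7.2e-05 for each rho), and r = 0.720, 0.694 and 0.712 without the 2 farthest libraries. Cp in nerve ran the other way from the adipocyte score, with r = -0.307 and rho = -0.361 (permutation adjusted p = 0.0769 and 0.0472), and r = -0.441 without the 2 farthest libraries.

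**Figure D4:**
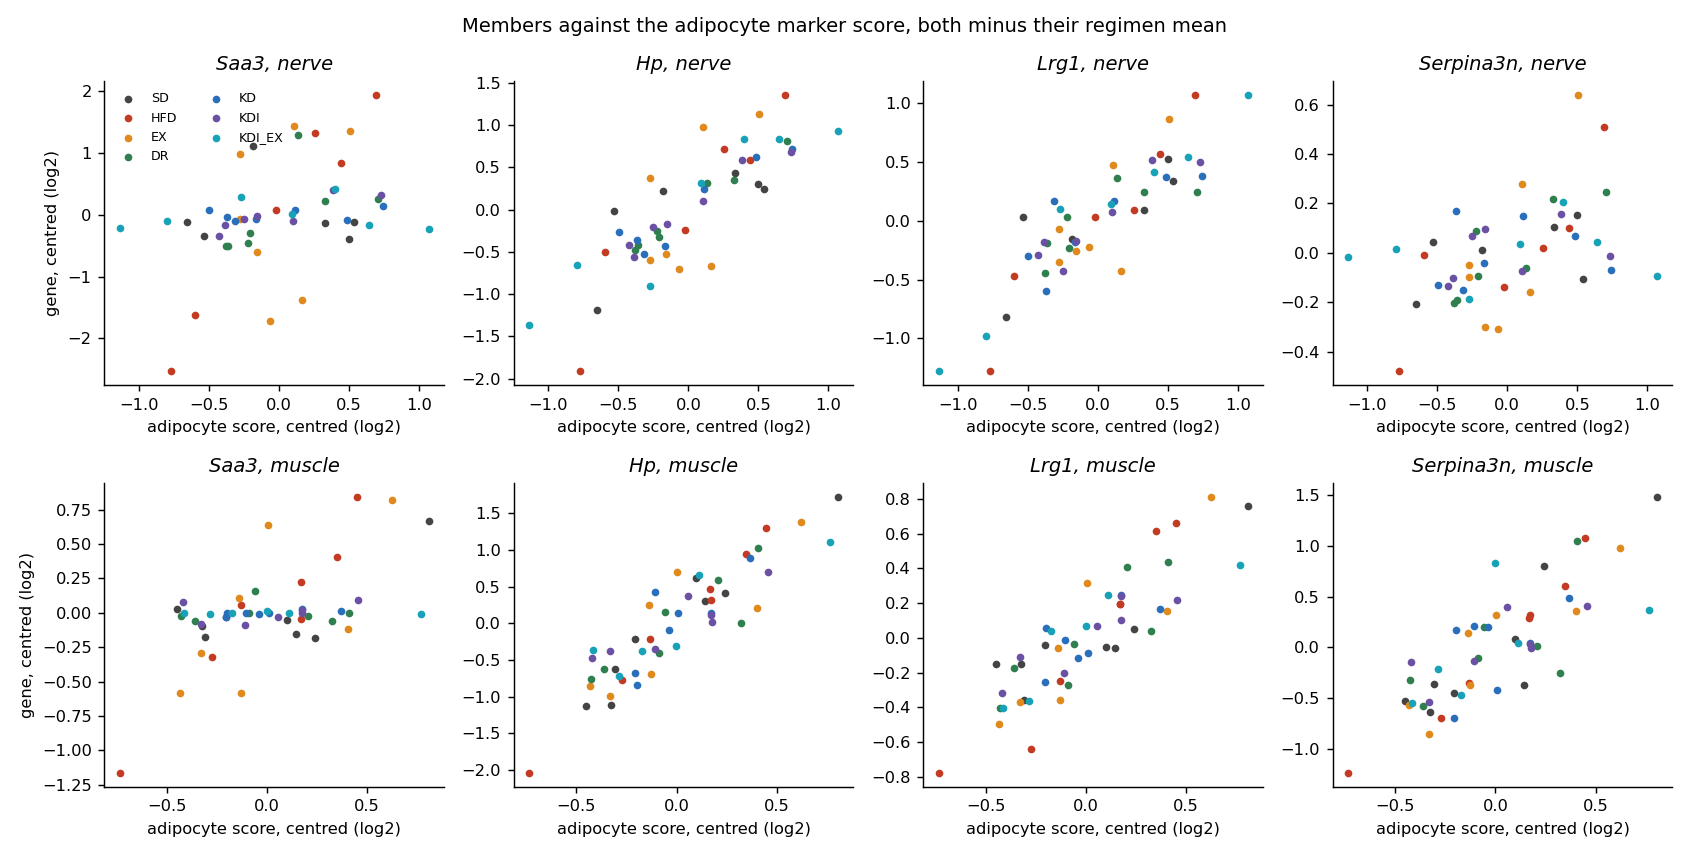
Saa3, Hp, Lrg1 and Serpina3n (vertical axes) against the adipocyte marker score (horizontal axes) in nerve (top) and muscle (bottom), in log2 units after subtraction of the regimen mean; each point is 1 library. Hp and Lrg1 lie along a line in both tissues (r from 0.845 to 0.901), and Saa3 in nerve is scattered (r = 0.391).

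The adipocyte score averaged -0.11 ± 0.58 in HFD nerve and -0.08 ± 0.53 in SD nerve, and 0.26 ± 0.41 in HFD muscle and -0.06 ± 0.41 in SD muscle. Its part in the HFD levels was not tested. It averaged 0.32 ± 0.28 in EX nerve and -0.01 ± 0.79 in KDI_EX nerve. With this score and the skeletal muscle score as covariates, Saa3 differed by -2.10 and Serpina3n by -0.55 between KDI_EX and EX nerve, and both were called (limma adjusted p = 0.0136 and 0.00625). They were among 53 genes called of 17226 under that setting. In nerve the Schwann cell score ran opposite to Lrg1, with r = -0.801 and rho = -0.783 (permutation adjusted p = 6.55e-05 and 7.2e-05), and r = -0.774 without the 2 farthest libraries.

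C3 and Cp in muscle tracked macrophage and fibroblast markers. The macrophage score had r = 0.902 with C3 and 0.785 with Cp (rho = 0.894 and 0.779; permutation adjusted p = 5.14e-05 for each r and 6.55e-05 for each rho), and r = 0.886 and 0.751 without the 2 farthest libraries. The fibroblast score had r = 0.785 with C3 and 0.760 with Cp (rho = 0.816 and 0.784; permutation adjusted p = 5.14e-05 for each r and 6.55e-05 for each rho), and r = 0.773 and 0.706 without the 2 farthest libraries. The adipocyte score had r = 0.396 with C3 and 0.570 with Cp (rho = 0.310 and 0.524; permutation adjusted p = 0.0312 and 0.000296 for r, 0.0816 and 0.000758 for rho), and r = 0.291 and 0.465 without the 2 farthest libraries. In nerve the macrophage score had r = 0.240 with C3 (rho = 0.275, permutation adjusted p = 0.201 and 0.14), and r = 0.256 without the 2 farthest libraries.

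Lcn2 in muscle went with neutrophil markers. KDI replicate 7 was the highest of all 49 muscle libraries for 12 of the 13 neutrophil markers in the muscle files, among them S100a9 at 12.3 and Ltf at 13.3, against at most 5.16 and 2.94 in the 47 libraries other than EX replicate 7. EX replicate 7, with the next highest Lcn2 at 5.96, lay above those 47 for 11 of the 13. The neutrophil score, from the 4 markers past the filter, had r = 0.925 and rho = 0.694 with Lcn2 (permutation adjusted p = 0.00018 and 0.000508), and r = 0.701 without the 2 farthest libraries. Without KDI replicate 7 the difference of Lcn2 between KDI_EX and KDI muscle went from -0.99 to -0.36, and that between KDI and DR from 0.84 to 0.21. None of these was called (limma adjusted p of 0.635 or more).

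**Figure D5:**
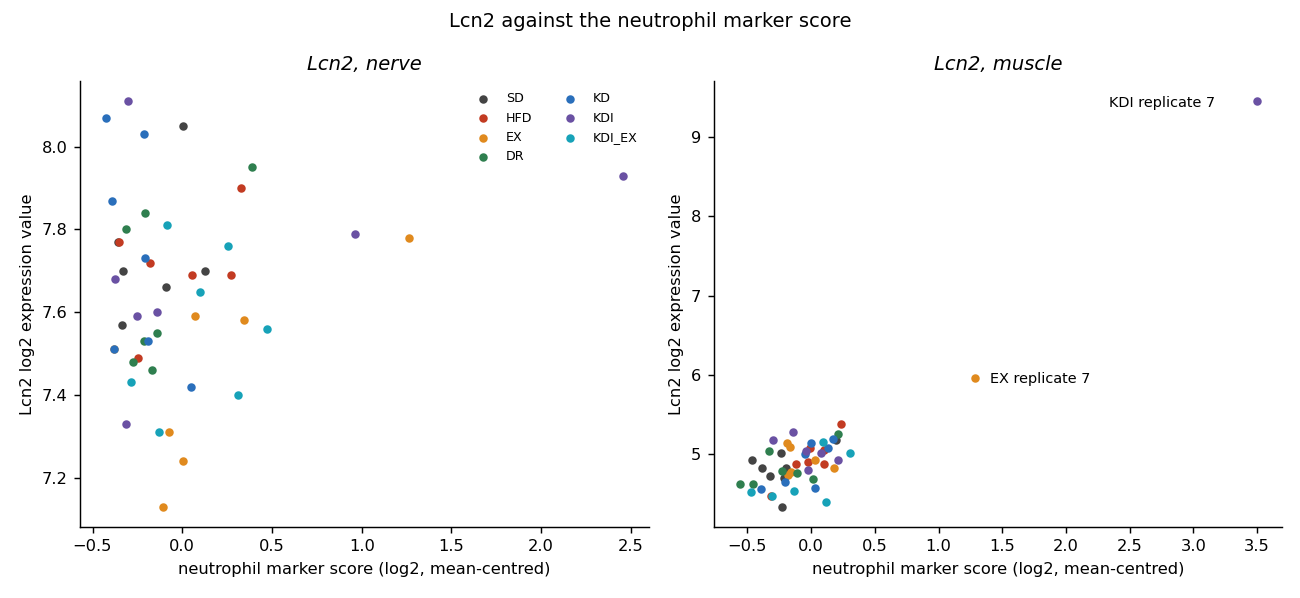
Lcn2 log2 value (vertical axes) against the neutrophil marker score (horizontal axes, mean centred log2 value) in nerve and muscle; each point is 1 library, coloured by regimen. In muscle, KDI replicate 7 (9.45) and EX replicate 7 (5.96) lie apart from the other 47 libraries, whose highest Lcn2 is 5.38.

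Transcripts listed as hepatocyte markers were mixed. In nerve Ttr, Apoa1, Apoa2 and Apoc3 were under the filter in every library, with highest values of 3.08, 2.81, 3.27 and 2.56. In muscle Ttr passed it in 1 of 49 libraries and Apoa2 in none. Ahsg in nerve was above the filter in 47 of 47 libraries, at 3.37 to 4.36, and Serpina1a in 6. Alb and Cyp2e1 were above the filter in every library, with medians of 6.88 and 12.8 in nerve and of 4.69 and 9.10 in muscle. The hepatocyte score of the markers past the filter, 6 of 14 listed in nerve and 3 of 14 in muscle, averaged 0.07 ± 0.16 in EX nerve and 0.01 ± 0.37 in KDI_EX nerve. It averaged 0.27 ± 0.38 in EX muscle and -0.31 ± 0.54 in KDI_EX muscle, and it had r = 0.678 with Hp in nerve and 0.668 in muscle (rho = 0.659 and 0.649; permutation adjusted p = 6.55e-05 and 5.14e-05 for r, 0.000131 and 0.000103 for rho), with r = 0.623 and 0.663 without the 2 farthest libraries. The cell type behind this score, which holds Alb and Cyp2e1, and its part in the differences were not tested.

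Of the cytokines that drive the acute-phase response, Il6 and Il1b were under the filter in both tissues, with highest nerve values of 0.77 and 2.51, and Tnf was under it in muscle. Of the 7 cytokine transcripts tested in nerve and the 5 tested in muscle, none was called in any tested comparison. The same held for 13 cytokine receptors, among them Il6ra and Il1r1, and for 16 intracellular regulators in each tissue. At an unadjusted p under 0.05, limma counted at most 2 cytokines, 2 receptors and 4 regulators in any comparison. Between KDI_EX and EX nerve, Stat3 differed by 0.00 ± 0.04, its feedback inhibitor Socs3 by 0.03 ± 0.11, Cebpb by -0.07 ± 0.17 and Cebpd by -0.03 ± 0.12. Cebpd differed between EX and SD by -0.42 ± 0.12 in nerve and by -0.57 ± 0.23 in muscle, and neither difference was called (limma adjusted p = 0.22 and 0.322). Lower Cebpd than in SD was not particular to EX. In nerve it differed from SD by -0.383 ± 0.124 in HFD, -0.345 ± 0.12 in KD and -0.389 ± 0.12 in DR. In muscle it differed by -0.667 ± 0.226 in DR, -0.236 ± 0.226 in HFD and -0.013 ± 0.226 in KD.

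Other acute-phase and innate secreted proteins gave 1 call. Serpina3m, a relative of Serpina3n, fell by 0.98 ± 0.21 in KDI_EX nerve relative to EX nerve (limma adjusted p = 0.0499). It was the 1 called of 19 tested in nerve, beside 0.0581% of all tested genes in that comparison. Whether reads shared with Serpina3n entered this call was not tested. None of 10 was called in muscle. No gene was called among 26 tested complement genes, 15 iron-handling genes, or the receptors and binding partners of the members (17 tested in nerve, 16 in muscle). At an unadjusted p under 0.05 the most in any comparison were 8 complement genes, 4 iron-handling genes and 3 receptors or partners. Of the 26 complement genes, 24 in nerve and 22 in muscle had a higher mean in EX than in SD, beside 50.3% and 49.5% of all genes. The median differences were 0.15 and 0.20 beside 0.001 and -0.001 over all genes. Uneven counts were not particular to EX against SD. In muscle 23 of the 26 were higher in KDI than in DR, 4 in KDI_EX than in EX and 3 in KDI_EX than in KDI. In nerve 21 were higher in KDI_EX than in KDI.

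Sequence relatives could share reads with the members. The Serpina3n transcript was 81.2% identical to Serpina3m over 1578 aligned bases and 79.3% identical to Serpina3c over 2089, and Serpina3c had a median log2 value of 10.3 in nerve. Orm1 was 91.0% identical to Orm2 over 775 bases, and Orm2 reached at most 2.64 in nerve. Saa3 was 81.3% identical to Saa1 over 284 bases, and Saa1 reached at most 3.68 in nerve. The median log2 value in nerve was 4.58 for Serpina3m and 12.2 for Serpina3n. How reads shared by relatives were assigned is not given in the sources used here, so Serpina3n and Serpina3m in particular carry that uncertainty.

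The 5 genes whose log2 values ran most like Saa3 over all libraries were taken in each tissue. In nerve (47 libraries) they were Tph2 (r = 0.959), Itgad (0.933), Plppr4 (0.901), Ubd (0.895) and Rbm28 (0.893). In muscle (49 libraries) they were Tph2 (0.929), Itgad (0.885), Oxtr (0.858), Ubd (0.851) and Lipf (0.844). Tph2, Itgad and Ubd were in both sets of 5. Tph2 encodes a tryptophan hydroxylase, Itgad an integrin alpha chain of leukocytes and Ubd the ubiquitin-like modifier FAT10. Itgad in nerve averaged 8.42 ± 2.07 in HFD, 7.99 ± 2.26 in EX and 5.03 ± 0.67 in KDI_EX. The 5 genes most like Lrg1 were Slc22a4 (r = 0.928), Trp53inp2, Slc8a1, Qsox1 and Paqr9 in nerve and Kcnj14 (0.894), Oxtr, Fam83a, Mrap and Wdr93 in muscle, with none in both. These values of r include the differences between regimens and are descriptions.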

How the data were processed

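The authors deposited 1 log2 expression value per gene symbol and library; the transform is not given in the sources used here, so the size of a difference in a low gene may be shrunken. The submitters' processing notes list STAR 2.7.8a, RSEM 1.3.3, DESeq2, cutadapt 2.3, MultiQC 1.7, FastQC 0.11.8 and the build GRCm38, with no role. Per the labels, RNA came from TRIzol extracts, and the library kit is not stated to mark strand. Each tissue was fitted on its own with limma 3.58.1 (R 4.3.3, statmod 1.5.0) over all 7 groups with a trended, robust prior, on genes of at least log2 of 10 in 6 libraries (17226 in nerve, 15748 in muscle). Tests were two-sided, calls used a Benjamini-Hochberg adjusted p under 0.05 over all genes of a comparison, and the fit was tested on simulated data. Correlations used 100000 permutations of values centred on the regimen mean, and 1e-05 is the smallest p they can give.

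Members, gene lists and comparisons were chosen with earlier results of these data known. All 8 members were named, up to 4 called genes per pathway list, 9 cytokine-pathway genes whatever their p, and the 5 genes most like Saa3 and Lrg1. Marker scores are means of centred log2 values. The number of libraries in a direction is counted against the other group's mean. Results were recomputed with quantile normalisation, with quality weights per library, with every gene kept whatever its level, with no trend or robust prior, with marker scores as covariates, with the 2 groups fitted alone, without 2 libraries per tissue that an earlier analysis found to stand apart (EX replicate 5 and KDI_EX replicate 7 in nerve, DR replicate 1 and KDI_EX replicate 6 in muscle), and without each library in turn. The 2 muscle libraries were not those least like the others. Their mean correlation with the other muscle libraries was 0.9951 each. It was 0.9943 for KDI_EX replicate 3 and 0.9944 for DR replicate 4 and KDI replicate 7, which stayed in.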

Additional observations from a re-analysis of the deposited data

Results flagged for a closer look

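In 10 of the 112 groups of libraries (8 members, 7 regimens and both tissues), the highest or lowest library lay far from its nearest neighbour for the size of its group. Chance flags about 1 in 20 groups. In nerve, Saa3 stood at 5.55 in SD replicate 4 and at 5.89 in DR replicate 1, and Hp at 12.03 in SD replicate 3. In muscle SD, replicate 1 was high for Saa3 (3.13) and for Lrg1 (9.43). In muscle DR, replicate 6 was high for Saa3 (2.51), a gene near its floor there. Orm1 in muscle was low in KD replicate 3 (4.79) and high in KDI_EX replicate 5 (6.61). Lcn2 in muscle was high in EX replicate 7 (5.96) and in KDI replicate 7 (9.45), the libraries that were also highest for neutrophil markers. What set these libraries apart was not tested.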

How the results depend on the processing

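No paired analysis was possible because replicate numbers here only name libraries and nothing ties a nerve to a muscle library. Depth is unknown, so no counting error could be given. Members called between KDI_EX and EX in nerve were 2, and became 5 with marker scores as covariates, 0 without the libraries that stand apart, 0 with the 2 groups fitted alone, and 0 to 2 without 1 library. In muscle the count was 1, and became 0 with no filter, quality weights, quantile normalisation, marker scores, the libraries that stand apart left out, or the 2 groups alone, and 0 to 2 without 1 library. Between EX and SD the count was 0, and became 4 (quality weights), 1 (marker scores) and 0 to 1 (without 1 library) in nerve, and 3 (quality weights) in muscle. Between KD and SD in muscle it became 1, Orm1, with the 2 groups alone. The cause of these changes was not tested, apart from the fewer libraries of the last settings. Counts over all genes that moved by over 1.5 times were, in nerve, EX against SD from 0 to 355 (quality weights), 15 (marker scores) and 7 (quantile), KD against SD from 1 to 5 (marker scores) and 0 (groups alone), KDI_EX against KDI from 0 to 1 (groups alone), and KDI against DR from 1 to 2 (quality weights) and 7 (marker scores). KDI_EX against EX in nerve went from 10 to 5 (no filter), 35 (quality weights), 53 (marker scores), 1 (libraries apart) and 1 (groups alone). In muscle, EX against SD went from 13 to 1107 (quality weights) and 8 (quantile), KD against SD from 31 to 223 (quality weights) and 105 (groups alone), and DR against SD from 0 to 2 (quality weights) and 1 (libraries apart). KDI_EX against EX in muscle went from 10 to 6 (quality weights), 4 (quantile), 4 (marker scores) and 2 (groups alone), and KDI against DR from 8 to 197 (quality weights), 5 (marker scores) and 3 (groups alone).

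The 3 called differences kept their sign under every alternative and without any 1 library. Among uncalled differences, 34 values under the alternatives took the other sign, and 24 differences did so without some 1 library, all of 0.237 log2 units or less on the other side and none called (lowest limma adjusted p = 0.713). With quality weights they became, in nerve, -0.092 for Saa3 (DR against SD), -0.028 for Cp (KDI_EX against EX) and 0.067, 0.025 and -0.014 for Saa3, Lrg1 and C3 (KDI_EX against KDI). In muscle they became 0.067, 0.104 and 0.027 for Serpina3n, C3 and Cp (KD against SD), 0.075, 0.013 and 0.025 for the same genes (DR against SD) and 0.002 for Orm1 (KDI against DR). With marker scores they became, in nerve, 0.004 for Lcn2 (KD against SD), -0.078, -0.079, -0.023 and -0.049 for Saa3, Hp, Orm1 and Lrg1 (DR against SD), and 0.006 and -0.019 for C3 and Cp (KDI_EX against EX). In muscle they became 0.121 and 0.052 for Serpina3n and C3 (KD against SD), 0.121 for Cp (KDI_EX against EX), 0.237, 0.219, 0.002, 0.026 and 0.011 for Saa3, Orm1, Lrg1, Serpina3n and Cp (KDI_EX against KDI), and -0.172 and -0.098 for Saa3 and Hp (KDI against DR). With quantile normalisation Lcn2 and C3 in nerve became 0.018 and -0.012 (KD against SD). Without the libraries that stand apart, Orm1 in nerve became -0.001 (KDI_EX against KDI), and C3 and Cp in muscle became 0.036 (DR against SD) and -0.001 (KDI against DR).

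Without 1 library, the ranges that crossed 0 in nerve were -0.058 to 0.061 for Lcn2 and -0.03 to 0.058 for C3 (KD against SD), -0.06 to 0.376 for Saa3, -0.062 to 0.263 for Hp and -0.03 to 0.238 for Lrg1 (DR against SD), and -0.133 to 0.023 for C3 and -0.021 to 0.056 for Cp (KDI_EX against EX). For KDI_EX against KDI they were -0.128 to 0.008 for Saa3, -0.344 to 0.037 for Hp, -0.023 to 0.373 for Orm1, -0.195 to 0.195 for Lrg1 and -0.017 to 0.137 for C3, and for KDI against DR -0.004 to 0.126 for Lcn2. In muscle they were -0.014 to 0.144 for Lrg1, -0.269 to 0.034 for Serpina3n, -0.003 to 0.119 for Lcn2 and -0.134 to 0.101 for C3 (KD against SD). For DR against SD they were -0.147 to 0.27 for Hp, -0.303 to 0.083 for Serpina3n, -0.064 to 0.059 for Lcn2 and -0.238 to 0.047 for C3, and for KDI against DR -0.001 to 0.042 for Saa3, -0.287 to 0.024 for Orm1 and -0.001 to 0.167 for Cp.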
